A study of Mus musculus with 4 samples.

Results

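The interleukin-1 (IL-1) system was followed as 9 genes of the 32285 in the count table, chosen by name: the ligands Il1a and Il1b, the antagonist Il1rn, the receptor chains Il1r1, Il1r2 and Il1rap, the caspases Casp1 and Casp4, and the sensor Nlrp3. All 9 were in the table and were followed across 33368 cells, 4 samples and 17 deposited cell types. The cells came from YUMM1.7-OVA melanomas, a mouse line with mutant Braf that makes ovalbumin, grown in Rag2-/- mice, which have no T or B cells of their own. Every host received OT-1 CD8+ T cells, which recognise an ovalbumin peptide, on day 7, and tumours were taken on day 10, 72 h later. NTT cancer cells were naive to targeted therapy and RTT cells were resistant to it. RTT_ROSA26 was the resistant line with a control guide, and RTT_PTGS12KO was the resistant line with Ptgs1 and Ptgs2, the cyclooxygenases that start prostaglandin synthesis, knocked out. The edits were in the injected cancer cells, whereas the sort took live CD45+ host and transferred cells, so the edit itself cannot be checked in these cells.

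Each group was 1 sample, so no test was made. The labels speak of 1 tumour per condition and the study's legends of pooled tumours, and which holds here was not settled. Samples held 6836 to 10296 cells and 69332486 to 146829369 UMIs (unique molecular identifiers, the counted molecules), with a median of 7292.5 UMIs per cell in NTT and 12219 to 13280 in the others. Levels are UMIs summed over the cells of a sample and type, per 1000000 UMIs of that sum (CPM), with 95% exact Poisson intervals. Differences are log2 ratios of CPM + 1 with 95% counting intervals, and all intervals cover counting error only. The pooled cells were loaded 3 times, which measures technical spread only, and 98 of 33270 barcode sequences recurred between loads, with 0 cells sharing load and barcode. Monocytes are Monocyte_1, Infl_Mono and Monocyte_3. Macrophages are TAM_C1q, TAM_Spp1, TAM_cycling and Ctsk_Macro. TAM_H2Ab1 was kept apart, since its 10 leading genes held 1 listed cDC1 marker (Cadm1) and no listed macrophage marker, and so was Macro. The 10 leading genes of TAM_cycling and Myofibrobl held no listed marker of any type, and Infl_Mono was led by interferon-stimulated genes. Monocytes made up 80.1%, 6.55%, 2.11% and 39.0% of cells in NTT, RTT, RTT_ROSA26 and RTT_PTGS12KO, and macrophages 1.40%, 83.7%, 87.5% and 47.0%. RTT_ROSA26 monocytes thus rest on 144 cells and NTT macrophages on 116. In a sum over all cells, fewer cells of a type and less RNA per cell cannot be told apart.

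IL-1α and IL-1β are cytokines that macrophages, monocytes and neutrophils make when they sense damage or microbes. Both bind the receptor chain IL-1R1, which recruits the accessory chain IL1RAP and signals through MyD88 to NF-κB. The antagonist encoded by Il1rn occupies IL-1R1 without signalling, and IL-1R2 is a decoy that binds the ligand and sends no signal. IL-1β is made as an inactive precursor that caspase-1 cuts inside an inflammasome, of which NLRP3 is the best known sensor in myeloid cells, while mouse caspase-4 (also called caspase-11) senses bacterial lipopolysaccharide in the cytosol. Transcript levels therefore show what cells are primed to make, and no released cytokine was measured.

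The 9 genes lie on 5 chromosomes. Il1a (chr2:129299609-129310186) and Il1b (chr2:129364569-129371164) are neighbours on mouse chromosome 2 (RefSeq, GRCm38.p6), which also holds Il1rn (chr2:24336860-24351491). Il1r2 (chr1:40084692-40125230) and Il1r1 (chr1:40222480-40316201) share chromosome 1. Casp1 (chr9:5298517-5307281) and Casp4 (chr9:5308849-5336791) stand in tandem on chromosome 9 with 1567 bases between them, Nlrp3 is at chr11:59541569-59566955 and Il1rap at chr16:26581509-26730128. The 250 bases before the start are shown for Casp1 and Casp4, neighbours that were past 2-fold in the sums over all cells in both the NTT and the knockout comparison, and for Il1b, the most abundant of the 9. They are written 5′ to 3′ on the gene's strand, with matches to the searched letters in capitals. The Il1b window precedes a RefSeq start that lies inside the outer end of the gene given above, so its bases nearest the start overlap the gene.
Casp1 (chr9:5298267-5298516, plus strand): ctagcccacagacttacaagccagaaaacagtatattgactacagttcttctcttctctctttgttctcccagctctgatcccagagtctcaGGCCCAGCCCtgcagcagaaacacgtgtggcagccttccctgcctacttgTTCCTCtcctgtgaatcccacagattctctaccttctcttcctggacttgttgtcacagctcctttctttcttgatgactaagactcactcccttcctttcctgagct
Casp4 (chr9:5308599-5308848, plus strand): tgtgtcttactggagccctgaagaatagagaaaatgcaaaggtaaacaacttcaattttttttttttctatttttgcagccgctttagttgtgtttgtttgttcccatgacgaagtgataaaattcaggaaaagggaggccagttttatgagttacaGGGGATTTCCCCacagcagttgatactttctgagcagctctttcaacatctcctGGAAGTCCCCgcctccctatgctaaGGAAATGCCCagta
Il1b (chr2:129371140-129371389, minus strand): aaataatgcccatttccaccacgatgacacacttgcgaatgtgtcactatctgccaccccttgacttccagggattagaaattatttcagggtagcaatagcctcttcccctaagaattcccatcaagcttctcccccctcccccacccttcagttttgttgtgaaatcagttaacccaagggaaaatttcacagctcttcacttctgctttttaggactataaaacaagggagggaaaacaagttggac
The capitals in Casp1 mark 1 match to loose NF-κB letters (GGG and CC with NNNNN between) and 1 to the PU.1 core GAGGAA, here on the opposite strand. Those in Casp4 mark 6 matches to the loose NF-κB letters, counted on both strands, several of which overlap. Over all 32851 RefSeq windows of 300 bases (250 before and 50 after the start), 50.8% held the loose NF-κB letters and 28.3% held GAGGAA, so these matches are common. Stricter NF-κB letters (GGGA and TTTCC with N between) were in 0.411% of windows, the interferon-stimulated response element (GAAA and GAAA with NN between) in 3.44%, the STAT letters TTCNNNGAA in 8.30%, the C/EBP letters TTGCNNAA in 10.8% and the cyclic AMP element TGACGTCA in 1.79%, and none of these was in the Casp1, Casp4 or Il1b windows. The Il1b window held no match to any of the 7 patterns. Both strands were searched, and a match is a description, not a site.

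Il1b was highest in neutrophils in all 4 samples. Neutrophils stood at 11000, 11272, 6950 and 9839 CPM in NTT, RTT, RTT_ROSA26 and RTT_PTGS12KO. Next came Monocyte_3 (4947 CPM in NTT and 3588 in RTT_PTGS12KO, on 26 and 33 cells), cDC2 (2526, 3625, 3181 and 3474), Monocyte_1 (3468, 2318, 3046 and 2438), TAM_Spp1 (2780, 3172, 2370 and 2512) and Infl_Mono (3280, 2808, 1927 and 2453). The ranges of the last 4 overlapped, and Monocyte_3 overlapped cDC2 alone among them. TAM_Spp1 in NTT was 20 cells, with a summed level of 2620 CPM for the 8 listed neutrophil markers against 184 to 271 CPM in the other samples, and the part of those markers in its levels was not tested. TAM_C1q, whose 10 leading genes include Gdf15, Gas6 and Apoe, stood at 1042, 693 and 714 CPM in RTT, RTT_ROSA26 and RTT_PTGS12KO, below the whole range of TAM_Spp1.

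**Figure D1:**
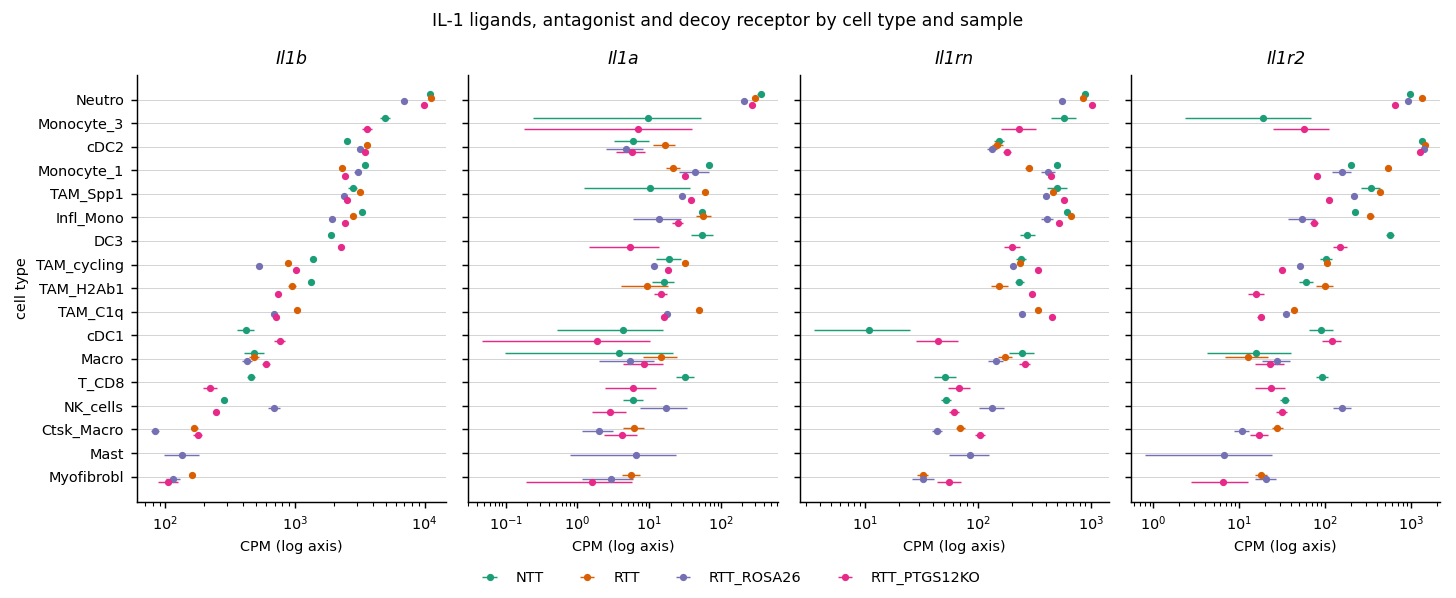
Levels of Il1b, Il1a, Il1rn and Il1r2 (CPM, log axes) by cell type, ordered by the median Il1b level. Each point is 1 sample with at least 20 cells of the type and bars are 95% exact Poisson intervals. Neutrophils lead for Il1b, Il1a and Il1rn, and cDC2 and neutrophils for Il1r2. Values of 0 cannot be drawn on a log axis.

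UMIs of Il1b also appeared in cells that should not make it. NK cells stood at 284 CPM in NTT and 246 in RTT_PTGS12KO and CD8+ T cells at 459 and 220, and in RTT_ROSA26 26 NK cells gave 692. Ctsk_Macro, whose leading genes Ctsk, Acp5 and Oscar are those of osteoclast-like cells, stood at 167, 83.0 and 177 CPM in RTT, RTT_ROSA26 and RTT_PTGS12KO. That is below the level in NK and CD8+ T cells of NTT and RTT_PTGS12KO, so it is not read as expression. With each cell thinned to 3000 UMIs, 22.9% (95% Clopper-Pearson interval 19.8 to 26.3) of NTT NK cells and 19.9% (15.6 to 24.9) of RTT_PTGS12KO NK cells held at least 1 Il1b UMI. The share was 92.0%, 86.7%, 84.1% and 80.3% of monocytes and 75.9%, 58.8%, 52.6% and 58.2% of macrophages in sample order. Without thinning, the shares were 42.9% and 55.2% of those NK cells (median depth 7669 and 15524 UMIs), 89.6% to 96.4% of monocytes and 77.8% to 93.1% of macrophages (median depths 5934 to 9102 and 12917 to 15889 UMIs). Monocytes and macrophages were above the NK cell share in every sample with at least 300 NK cells, on either count.

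Different cells held the Il1b of different tumours. In NTT, monocytes held 85.9% of all Il1b UMIs and macrophages 1.53%. In RTT the shares were 6.59% and 78.2%, with TAM_Spp1 at 40.4% and TAM_C1q at 28.4%. In RTT_ROSA26 they were 2.22% and 73.4%, and in RTT_PTGS12KO 43.1% and 41.9%. Neutrophils were 1.19% to 2.14% of cells and held 6% to 14.6% of Il1b UMIs, most in RTT_ROSA26. After thinning, the top 10% of macrophages held 55.6%, 59.6% and 53.1% of their Il1b UMIs in RTT, RTT_ROSA26 and RTT_PTGS12KO and 35.8% in NTT, against 30.3% to 40.4% in monocytes of the 4 samples. In the resistant samples the share was 40.5% to 42.9% within TAM_Spp1 alone and 56.1% to 59.5% within TAM_C1q alone.

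**Figure D2:**
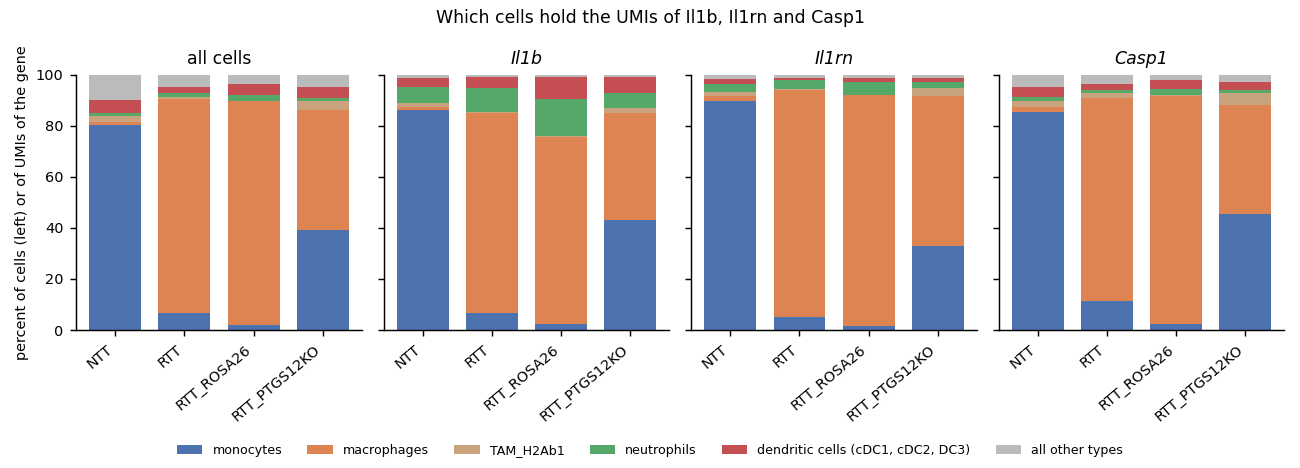
Percent of cells (left panel) and of the UMIs of Il1b, Il1rn and Casp1 in each sample that lie in monocytes, macrophages, TAM_H2Ab1, neutrophils, dendritic cells and all other types. Monocytes hold 85.9% of Il1b UMIs in NTT and macrophages 78.2% in RTT, and RTT_PTGS12KO lies between.

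Summed over all cells, Il1b stood at 2967, 1558, 986 and 1607 CPM in sample order, highest in NTT and lowest in RTT_ROSA26. NTT was above RTT by a log2 ratio of 0.93 (0.92 to 0.94). RTT_PTGS12KO was above RTT_ROSA26, called the knockout pair here, by 0.70 (0.69 to 0.71). The control pair, RTT_ROSA26 set against RTT, which both keep Ptgs1 and Ptgs2, stood at -0.66 (-0.67 to -0.65), a distance close to that of the knockout pair. With every sample given the same mix of cell types, the 3 ratios were 0.39, 0.18 and -0.29. The first of these rests in part on 12 TAM_C1q and 20 TAM_Spp1 cells of NTT. Within monocytes Il1b stood at 3428, 2445, 2409 and 2444 CPM, so NTT was higher (0.49, 0.46 to 0.51), and the knockout pair stood at 0.02 (-0.04 to 0.08). That value joins opposite ones, -0.32 (-0.40 to -0.24) in Monocyte_1 and 0.35 (0.26 to 0.44) in Infl_Mono, which was 86 of 144 monocytes in RTT_ROSA26 and 635 of 4015 in RTT_PTGS12KO. The control pair stood at 0.39 and -0.54 in these types. Within macrophages it stood at 1569, 1468, 803 and 1176 CPM, with 0.55 (0.54 to 0.56) for the knockout pair and -0.87 (-0.88 to -0.86) for the control pair. NTT to RTT stood at 0.10 in the class but at 0.64 (0.57 to 0.71) in TAM_cycling, which was 79 of 116 macrophages in NTT and 873 of 6671 in RTT, and at -0.19 (-0.31 to -0.07) in TAM_Spp1. The knockout pair differed by 0.94 in TAM_cycling (532 against 1024 CPM), 0.08 in TAM_Spp1 and 0.04 in TAM_C1q on the log2 scale, and by 1.09 (0.94 to 1.23) in Ctsk_Macro, at the low levels given above. The 26 NK cells of RTT_ROSA26, at 692 CPM, were above its TAM_cycling and level with its TAM_C1q (693), and the part of such UMIs in these differences was not tested.

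Il1a, the ligand that is active without processing, was also highest in neutrophils, at 358, 300, 212 and 276 CPM. Over all cells it stood at 57.2, 44.1, 18.8 and 24.4 CPM. In monocytes it was highest in NTT, at 64.7 CPM against 31.0, 28.9 and 31.2. The control pair joins opposite values there, 0.97 (0.25 to 1.69) in Monocyte_1 and -1.97 (-2.96 to -0.98) in Infl_Mono. NTT and RTT differed in Monocyte_1 (68.0 against 21.8 CPM), and in Infl_Mono they lay within counting error (54.3 against 57.3, -0.08, -0.42 to 0.27). In macrophages it was highest in RTT, at 45.7 CPM against 17.9 in NTT, 15.3 in RTT_ROSA26 and 20.7 in RTT_PTGS12KO. For NTT against RTT the log2 ratio was therefore 1.04 (0.81 to 1.27) in monocytes and -1.30 (-1.75 to -0.85) in macrophages, the latter on 116 NTT cells. In TAM_cycling, most of those cells, the ratio was -0.72 (18.9 against 31.7 CPM), and TAM_Spp1 held 2 Il1a UMIs in NTT. With a pseudocount of 10 CPM both came inside 2-fold (0.87 in monocytes). In load 1 alone the monocyte ratio was 0.22, and in load 2 alone the macrophage ratio was -0.45. The control pair differed as much in macrophages, at -1.52 (-1.60 to -1.44), and in TAM_C1q (49.0 against 17.8 CPM), TAM_Spp1 (60.0 against 28.8) and TAM_cycling (31.7 against 11.6) alike.

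Il1rn, which encodes the receptor antagonist, followed Il1b between cell types, with Pearson r = 0.83 over 42 units of 1 sample and 1 type with at least 50 cells. These units share libraries and depth, and r is given as a description. It was highest in neutrophils (884, 857, 555 and 1039 CPM), Infl_Mono (616, 669, 412 and 522), TAM_Spp1 (505, 465, 400 and 579) and Monocyte_1 (501, 281, 420 and 448). cDC2 were an exception, with Il1b at the level of monocytes and Il1rn at 154, 148, 134 and 181 CPM. In macrophages Il1rn stood at 271, 335, 231 and 405 CPM and was highest in RTT_PTGS12KO, at a log2 ratio of 0.81 (0.78 to 0.83) to RTT_ROSA26. The control pair stood at -0.53 (-0.56 to -0.51), so RTT_ROSA26 was also below RTT. The difference of the knockout pair was present in TAM_C1q (245 against 456 CPM, 0.89), TAM_Spp1 (400 against 579, 0.53) and TAM_cycling (204 against 338, 0.73). Neutrophils differed by 0.90. In monocytes the knockout pair differed by 0.13 (-0.01 to 0.27).

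The balance of agonist to antagonist was read as Il1b UMIs per Il1rn UMI, which needs no scaling, and, with 1 count per captured 3′ end, no division by transcript length. Over all cells it was 6.79, 4.97, 4.26 and 4.07 in sample order. In macrophages it was 5.80, 4.38, 3.47 and 2.90, lowest in RTT_PTGS12KO, and the log2 intervals of the 3 resistant samples did not overlap (2.11 to 2.15, 1.77 to 1.82 and 1.52 to 1.55). TAM_C1q had the same order, with 3.04, 2.82 and 1.57 in RTT, RTT_ROSA26 and RTT_PTGS12KO, and so did TAM_Spp1 with 6.82, 5.93 and 4.34. TAM_cycling did not, with 3.79, 2.61 and 3.03. Monocytes were at 6.50, 6.40, 5.78 and 5.36, an order that neither Monocyte_1 (6.92, 8.24, 7.26 and 5.44) nor Infl_Mono (5.33, 4.2, 4.68 and 4.70) had. Neutrophils were at 12.4, 13.1, 12.5 and 9.47, and cDC2 were above them in each sample, at 16.4, 24.4, 23.7 and 19.2. On few cells, cDC1 gave 38.8 in NTT and 17.1 in RTT_PTGS12KO, and Monocyte_3 gave 8.54 and 15.5. NK cells gave 5.47 in NTT and 3.99 in RTT_PTGS12KO, against 6.79 and 4.07 in the whole samples.

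The signalling receptor had the lowest level of the 9 genes in these sorted cells. Il1r1 had 27, 183, 77 and 64 UMIs in whole samples and was the only one of the 9 genes under the minimum of 10 CPM in the mean of the 4 samples in every class. Among single types it passed the minimum only in Myofibrobl, and there only for the control pair. The leading genes of Myofibrobl include Mgp, Sox9 and Il11, and Il1r1 stood there at 12.4, 12 and 7.15 CPM in RTT, RTT_ROSA26 and RTT_PTGS12KO. The deposited name is that of a stromal cell, which a CD45+ sort should remove. The 249 RTT cells held 59.6% (52.1 to 66.7) of Il1r1 UMIs in RTT. Myofibrobl held 37.7% (26.9 to 49.4) in RTT_ROSA26 and 14.1% (6.64 to 25) in RTT_PTGS12KO, and in NTT 6 cells held 13 of 27 UMIs. Il1rap, the accessory chain, was highest in neutrophils (69.6, 201, 128 and 104 CPM) and then in Myofibrobl (39.1, 48.9 and 53.2). Over all cells Il1rap stood at 9.03, 18.8, 15.7 and 10.4 CPM. It was lower in NTT than in RTT in each of the 5 types where it passed the minimum, at log2 ratios of -1.52 to -0.41. In neutrophils the ratio was -1.52 (-1.87 to -1.17), and in TAM_Spp1, with 20 NTT cells, it was within counting error. The minimum is a mean of both samples, so TAM_cycling passed through its RTT level (7.02 CPM in NTT), and the filter partly sets this count. Under the minimum, Il1rap was higher in NTT in TAM_H2Ab1 (0.61, -0.83 to 2.06) and lower in Monocyte_1 (-0.57) and Macro (-0.86). For NTT against RTT, 3.97% to 20.7% of all genes had a counting interval under 0 in single types.

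The decoy receptor Il1r2, at r = 0.84 to Il1b over the 42 units, was highest in cDC2, at 1338, 1444, 1422 and 1255 CPM, a level that stayed within a narrow range over the 4 samples, and then in neutrophils, at 957, 1332, 909 and 646 CPM, ranges that overlap. TAM_Spp1 stood at 340, 430, 217 and 111 CPM and TAM_C1q at 43.4, 34.8 and 17.6 in the 3 resistant samples. In monocytes it stood at 205, 478, 96.8 and 80.1 CPM, so that RTT was above the others. On the log2 scale NTT to RTT stood at -1.22 (-1.28 to -1.15). The control pair stood at -2.29, with the whole counting interval under 0, further apart than the -0.27 (-0.56 to 0.02) of the knockout pair. In macrophages the values were 118, 146, 64.5 and 41.6 CPM, with -0.62 (-0.68 to -0.56) for the knockout pair and -1.17 (-1.21 to -1.13) for the control pair. For the knockout pair Il1r2 stood at -0.97 in TAM_Spp1, -0.94 in TAM_C1q, -0.93 in Monocyte_1 and -0.18 in cDC2. In Ctsk_Macro it stood at 0.64 (0.21 to 1.06) and in Infl_Mono at 0.46 (-0.06 to 0.98). For the control pair the values were -0.98, -0.31, -1.76, -0.02, -1.31 and -2.60 in the same order of types. NK cells held Il1r2 at 157 CPM in RTT_ROSA26 and 30.9 in RTT_PTGS12KO. TAM_C1q and Ctsk_Macro (10.6 and 17.1) were below that in both samples, so neither is read as expression there. The NK level of RTT_ROSA26 was also above its monocytes and macrophages, and the part of such UMIs in these differences was not tested.

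Casp1 was highest in monocytes, and Casp4 in Monocyte_3, Infl_Mono and neutrophils. Casp1 was highest in Monocyte_3 (285 CPM in NTT and 169 in RTT_PTGS12KO), Infl_Mono (201, 126, 111 and 232) and Monocyte_1 (167, 152, 129 and 170), with Ctsk_Macro of RTT_PTGS12KO at a like level (197), and low in TAM_C1q (44.4, 45.4 and 59.5) and CD8+ T cells (22.4 and 23.3). Casp4 was highest, with overlapping ranges, in Monocyte_3 (171 and 127 CPM), Infl_Mono (164, 129, 123 and 175) and neutrophils (175, 148, 83.6 and 150). In Monocyte_1 it was lower (102, 73.5, 77.6 and 74.4), and that range overlapped those of Macro and TAM_H2Ab1. Over all cells Casp1 stood at 152, 54.0, 46.6 and 111 CPM and Casp4 at 102, 36.7, 23.8 and 54.7. NTT was highest and RTT_ROSA26 lowest for both genes.

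Casp1 and Casp4 were the members past 2-fold over all cells for NTT against RTT, at log2 ratios of 1.48 (1.43 to 1.52) and 1.45 (1.39 to 1.50), and again for the knockout pair, at 1.23 (1.19 to 1.28) and 1.17 (1.11 to 1.23). Il1b, at 0.93, and Il1rap, at -0.98, lay just inside 2-fold for NTT against RTT. That is 2 of 9 members, of which 8 passed the minimum, where 12.9% of all genes were past 2-fold for NTT against RTT (6.51% higher) and 5.91% for the knockout pair (4.05% higher). The median of all genes was -0.10 and -0.12 in these sums. For the control pair both were lower, at -0.21 (-0.26 to -0.16) and -0.61 (-0.67 to -0.54), and Il1a was the 1 member past 2-fold, where 1.52% of all genes were. With 1 mix of cell types in every sample the ratios were 0.55 and 0.64 for NTT against RTT and 0.78 and 0.62 for the knockout pair. In either comparison 0 members were then past 2-fold. For NTT that mix rests on few macrophages (12 TAM_C1q, 20 TAM_Spp1 and 5 Ctsk_Macro cells), and it leaves out Monocyte_3, which RTT lacked.

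**Figure D3:**
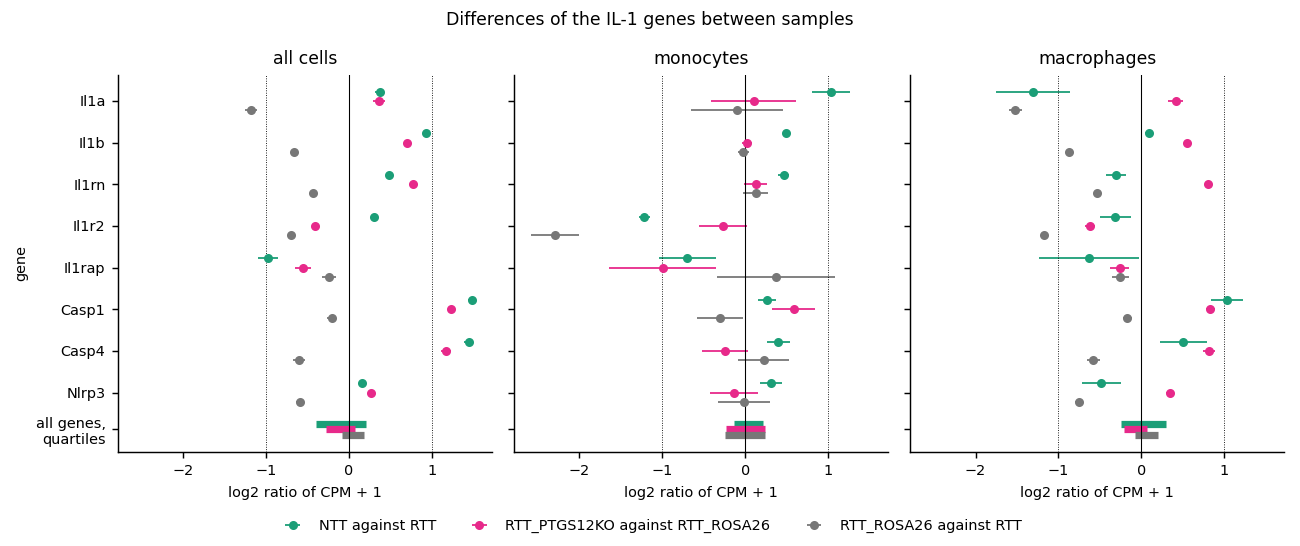
Log2 ratios of CPM + 1 of the 8 IL-1 genes above the minimum for 3 pairs of samples, over all cells, monocytes and macrophages. Bars through points are 95% counting intervals, thick bars at the bottom span the quartiles of all genes, and dotted lines mark 2-fold. Casp1 and Casp4 are right of 1 for NTT against RTT and for the knockout pair over all cells, and inside 2-fold for the knockout pair within both classes.

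Within single cell types Casp1 was higher in RTT_PTGS12KO than in RTT_ROSA26 in 10 of 10 types that passed the minimum, at log2 ratios of 0.38 to 1.54. In 6 of them it was past 2-fold higher. Of all genes, 4.37% were that much higher in Ctsk_Macro, 3.38% in Infl_Mono, 5.31% in Macro, 3.14% in Monocyte_1, 4.22% in NK cells, 4.26% in neutrophils, 1.32% in TAM_C1q, 1.51% in TAM_Spp1, 2.71% in TAM_cycling and 4.52% in cDC2. The 6 were Ctsk_Macro (66.9 against 197 CPM), neutrophils (54.2 against 127), cDC2 (63.1 against 134), Infl_Mono (111 against 232), Macro (75.8 against 158) and TAM_cycling (42.5 against 89.2). TAM_Spp1 (45.6 against 74.3), Monocyte_1 (129 against 170) and TAM_C1q (45.4 against 59.5) lay inside 2-fold, and in NK cells (28.3 against 42.8, 0.58, -0.20 to 1.36) the interval spanned 0. For NTT against RTT Casp1 was past 2-fold in 3 of 8 types, namely neutrophils (131 against 51.8 CPM), TAM_cycling (118 against 48.6) and cDC2 (144 against 71.0). Of all genes, 4.91%, 4.62% and 4.81% were past 2-fold higher in these 3 types, 2.94% in Infl_Mono, 9.46% in Macro, 2.22% in Monocyte_1, 3.41% in TAM_H2Ab1 and 7.35% in TAM_Spp1. For the control pair the log2 ratios of Casp1 were -0.56 to 0.07. These 3 comparisons share samples, so their values are given side by side and not as support for each other.

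Among types that passed the minimum, Casp4 differed most for the knockout pair in cDC2 (20.4 against 58.9 CPM, 1.48) and Ctsk_Macro (27.6 against 70.6, 1.32). Under the minimum, Casp4 stood at 1.24 against 18.3 CPM in Myofibrobl. In Monocyte_1 it did not differ beyond counting error (77.6 against 74.4 CPM, -0.06, -0.56 to 0.44). For the control pair Casp4 stood at -1.12 in cDC2, -0.82 in neutrophils and -0.52 in TAM_C1q, so RTT_ROSA26 was low for this gene in those types. In Monocyte_1 (0.08, -0.45 to 0.60) and Infl_Mono (-0.06, -0.46 to 0.34) the control pair lay within counting error. RTT_PTGS12KO and RTT stood at 37.0 and 36.0 CPM in TAM_C1q, 150 and 148 in neutrophils, 58.9 and 45.6 in cDC2, 175 and 129 in Infl_Mono, 39.1 and 27.6 in TAM_cycling and 70.6 and 44.2 in Ctsk_Macro, a pair for which no interval was computed.

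**Figure D4:**
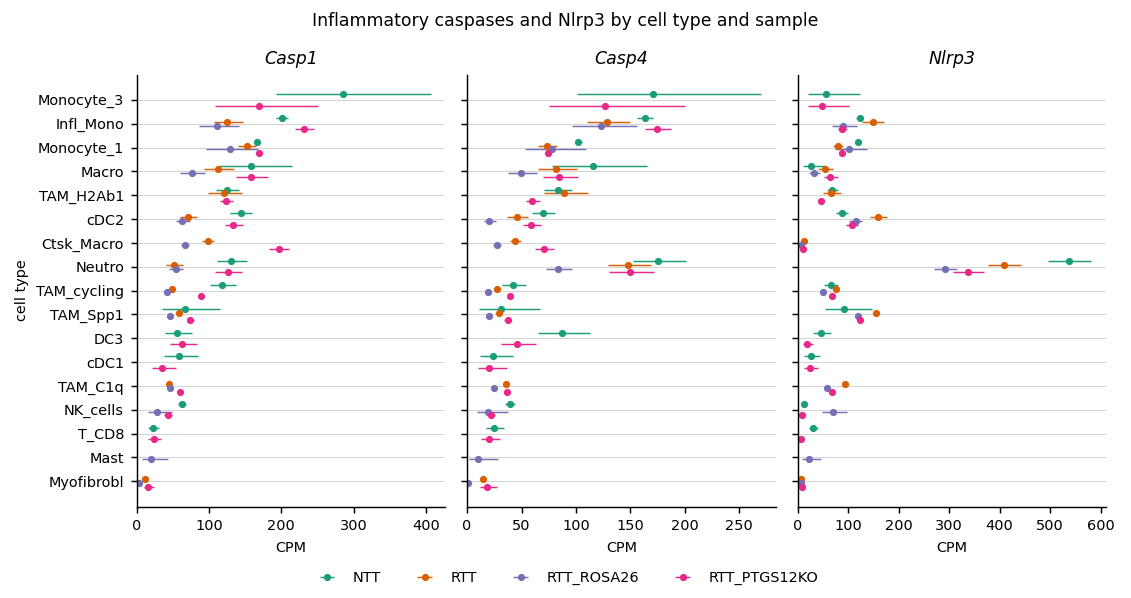
Levels of Casp1, Casp4 and Nlrp3 (CPM, axes from 0) by cell type, ordered by the median Casp1 level. Each point is 1 sample with at least 20 cells of the type, with 95% exact Poisson intervals. In neutrophils and cDC2, Casp1 of NTT and RTT_PTGS12KO lies apart from that of RTT and RTT_ROSA26 (131 and 127 against 51.8 and 54.2 CPM in neutrophils), while Nlrp3 is led by neutrophils in every sample.

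Nlrp3, unlike the caspases, was placed as Il1b was, with r = 0.92 to Il1b over the 42 units and r = 0.42 to Casp1. Neutrophils stood at 538, 409, 292 and 337 CPM, above the whole range of every other type, followed by TAM_Spp1 (92.8, 156, 120 and 123), cDC2 (87.4, 160, 115 and 107), Infl_Mono (123, 148, 90.4 and 89.0) and Monocyte_1 (121, 79.6, 102 and 88.4), which overlapped. Over all cells it stood at 109, 97.3, 64.0 and 77.3 CPM. NTT stood above RTT by 0.16 (0.12 to 0.20) on the log2 scale, and the knockout pair differed by 0.27 (0.23 to 0.31). The control pair stood at -0.60 (-0.64 to -0.56), the furthest from 0 of the 3 comparisons. In macrophages the values were 71.8, 100, 59.0 and 75.5 CPM.

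Within classes few members passed 2-fold. In monocytes it was 2 of 9 members for NTT against RTT (Il1a higher and Il1r2 lower, with 2.95% of all genes past 2-fold), 0 for the knockout pair (3.45%) and 1 for the control pair (Il1r2, 3.29%). In macrophages it was 2 for NTT against RTT (Casp1 higher and Il1a lower, 7.82%), 0 for the knockout pair (3.16%) and 2 for the control pair (Il1a and Il1r2 lower, 1.34%). Casp1 in macrophages stood at 108, 51.9, 46.1 and 83.0 CPM and Casp4 at 47.9, 33.4, 22 and 39.6. The Casp1 ratio of NTT to RTT in macrophages was 1.04 (0.84 to 1.23), and 0.86 in load 2 alone. The knockout pair thus differed by 0.84 (0.78 to 0.89) for Casp1 and 0.82 (0.74 to 0.89) for Casp4. Over the 3 loads, Casp1 stood at 73.0 to 87.1 CPM in RTT_PTGS12KO macrophages and 42.4 to 48.8 in RTT_ROSA26, which is technical spread and holds nothing on the spread between tumours.

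Macrophages and monocytes were binned by their own Il1b UMIs after thinning to 3000 UMIs, and since TAM_Spp1 and TAM_C1q differ in Il1b, these bins also sort cells by type. In RTT macrophages, cells with 10 or more Il1b UMIs (1083 cells) stood at 173 CPM for Il1a against 12.4 in cells with none (2736 cells). Over the same bins Nlrp3 went from 43.1 to 302, Il1rn from 160 to 875 and Il1r2 from 55.2 to 377. Casp1 did not follow, at 54.5 and 48.3, and Casp4 stood at 27.8 and 38.8. The knockout sample showed the same split, with Nlrp3 at 44.0 and 177, Il1rn at 313 and 746 and Casp1 at 83.1 and 71.2. In NTT monocytes Il1a stood at 9.01 and 123 CPM in the lowest and highest bins, Il1rn at 261 and 754 and Nlrp3 at 48.3 and 178, whereas Nlrp3 of RTT_ROSA26 monocytes, in bins of 22 to 48 cells, did not climb steadily (106, 62.5, 74.1 and 114). Casp1 was higher in RTT_PTGS12KO than in RTT_ROSA26 (48.6 and 44.1) in macrophages at both ends of the Il1b range. Il1r2 stood at 377, 293 and 137 CPM in the highest bin of RTT, RTT_ROSA26 and RTT_PTGS12KO, and at 55.2, 17.3 and 18.0 in the bin with none. In the bin with no Il1b, Il1rn of RTT_PTGS12KO was 313 against 158 in RTT_ROSA26 and 160 in RTT.

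**Figure D5:**
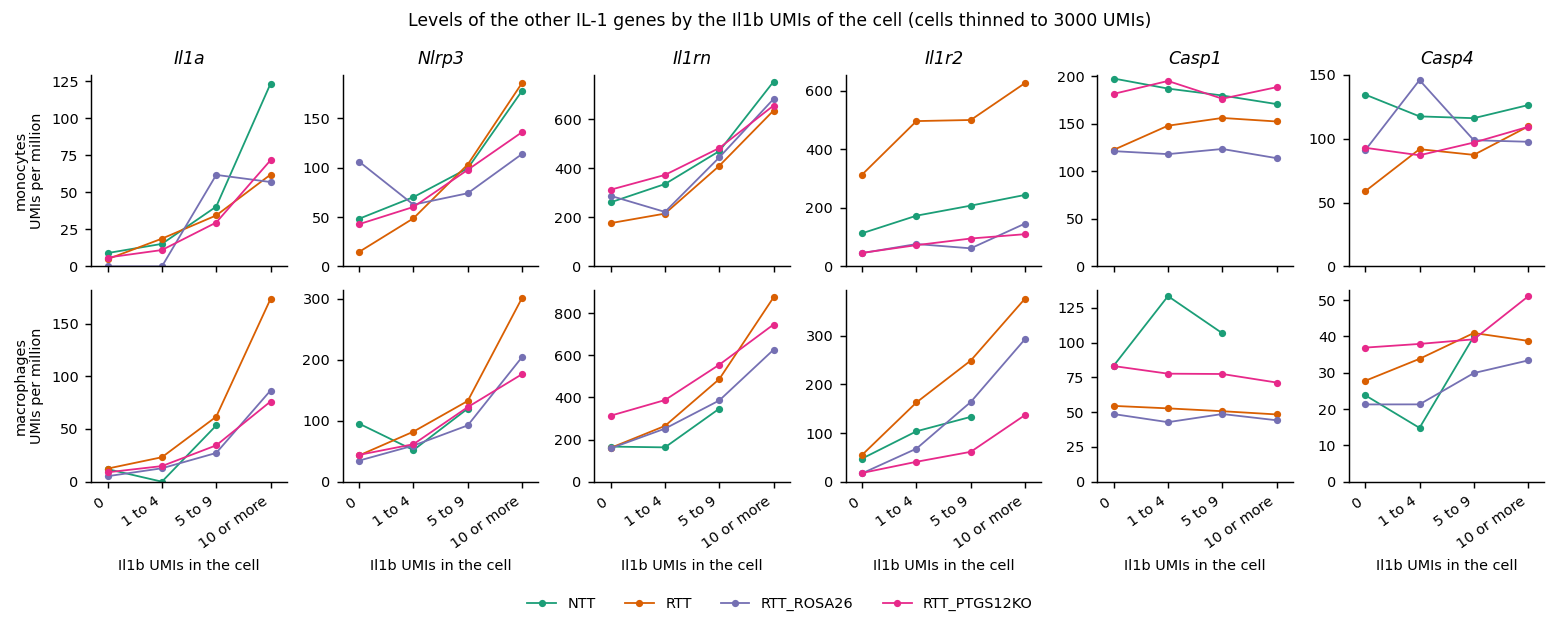
CPM of 6 IL-1 genes in monocytes (top) and macrophages (bottom), by the number of Il1b UMIs in the cell after thinning each cell to 3000 UMIs. Points are bins of at least 20 cells of 1 sample and vertical axes start at 0 and differ between panels. Il1a, Nlrp3, Il1rn and Il1r2 climb with Il1b in RTT macrophages (Nlrp3 from 43.1 to 302), and Casp1 does not (54.5 to 48.3).

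The genes whose levels were most like each member over the 42 units were sought among 7096 genes with at least 10 CPM. For Il1a they included the chemokines Cxcl2 (r = 0.91) and Ccl3 (0.90). For Il1b they were Ccrl2 (0.94), Ndel1 (0.94) and Dusp16 (0.94), for Nlrp3 Lilr4b (0.93), Il1b (0.92) and Lilrb4a (0.92), and for Il1rn Osm (0.96), A930007I19Rik (0.93) and the lipopolysaccharide co-receptor Cd14 (0.93). Il1r2 was most like Ifitm1 (0.91), Arih2 (0.87) and Il1b (0.84). For Casp1 they were Gbp7 (0.92) and Psmb10 (0.90), an interferon-inducible GTPase and a subunit of the immunoproteasome, and Pstpip2 (0.90). For Casp4 they were Parp14 (0.93), Trim30a (0.91) and Parp10 (0.91). Casp1 and Casp4 were at r = 0.83 to each other. Il1rap had the lowest best match, with Tnfrsf23 (0.82), Sgms2 (0.82) and Csf1 (0.80), and Il1r1 was under the minimum.

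The other genes of the pathway were taken from 5 lists. Of 12 receptor signalling genes (among them Myd88, Irak4 and Traf6), 10 passed the minimum. In monocytes and macrophages 0 of them were past 2-fold in any of the 3 comparisons, where 1.34% to 7.82% of all genes were. Over all cells 1 was past 2-fold higher for NTT against RTT, where 6.51% of all genes were. Of 19 other inflammasome genes, 13 passed in monocytes and 14 in macrophages, with 1 past 2-fold, Ninj1, whose protein ruptures the membrane of dying cells, in NTT monocytes (276, 121, 147 and 204 CPM, 1.19 for NTT against RTT, where 2.95% of all genes were past 2-fold). Panx1, a channel, was among the lowest there at -0.78 (11.3 against 20.2 CPM). Of 15 genes of NF-κB and its feedback, all 15 passed and 1 was past 2-fold for the knockout pair in macrophages, Tnip3, at 32.9, 9.66, 16.7 and 59.6 CPM (1.77, and 1.67 for NTT against RTT, where 3.16% and 7.82% of all genes were past 2-fold). The median of that list in macrophages was 0.16 for the knockout pair, against -0.08 for all genes, and 0.47 against 0.03 in monocytes for NTT against RTT. Of 14 other IL-1 family genes only 2 passed. One was Il18bp, which encodes a soluble trap for interleukin-18, at 157, 30.4, 9.82 and 48.1 CPM in macrophages (2.33 for NTT against RTT and 2.18 for the knockout pair) and 234, 190, 75.8 and 173 CPM in monocytes (1.18 for the knockout pair). Il18bp is also among the 10 leading genes of TAM_H2Ab1.

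The list of 21 genes known to be induced by IL-1 or together with Il1b held genes on both sides of 0. In macrophages 14 passed, and for the knockout pair 2 were past 2-fold higher and 1 lower, with a median of -0.25 against -0.08 for all genes, of which 3.16% were past 2-fold in either direction. Acod1, which makes itaconate, stood at 36.4, 7.18, 5.81 and 36.2 CPM (2.45 for the knockout pair and 2.19 for NTT against RTT). The neutrophil chemokine Cxcl1 stood at 77.8, 328, 115 and 52.1 CPM (-1.13 and -2.06), Ccl3 at 239, 430, 384 and 192 (-0.99 for the knockout pair) and Tnf at 78.3, 160, 82.7 and 42.2 (-0.95). For NTT against RTT, Thbs1 (343 against 980 CPM, -1.51) and Cxcl2 (1622 against 3516, -1.12) were also lower. In monocytes Il6 (20.0 against 3.06 CPM, 2.37, 1.81 to 2.93) and Cxcl3 (58.4 against 18.4, 1.62) were the highest for NTT against RTT. Il6 passed the minimum through NTT alone, with 8.98 CPM in RTT_ROSA26 and 8.14 in RTT_PTGS12KO, so its rank leans on that filter. Cxcl1 (36.0 against 87.1, -1.25) and Lcn2 (8.44 against 14.1, -0.68) were among the lowest. For the knockout pair in monocytes, Mmp9 (-1.79), Thbs1 (1413 against 536 CPM, -1.40) and Lcn2 (-1.20) were lowest and Cxcl1 (8.98 against 20.0 CPM, 1.07) and Ptgs2 (283 against 549, 0.95) near the top, on 144 RTT_ROSA26 monocytes. Mmp9 and Lcn2 are also made by neutrophils, and the 8 listed neutrophil markers summed to 306 to 358 CPM in monocytes, 516 to 922 in macrophages and 34442 to 54168 in neutrophils. The sum was 6303 to 7489 CPM in Ctsk_Macro, which Mmp9 helps to define, and 163 to 271 in the other macrophage types of the resistant samples. Their part in these values was not tested.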

How the data were processed

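CD45+ live cells of 4 tumour samples were profiled with the 10x 3′ CellPlex kit, pooled and loaded 3 times. The authors aligned reads with Cell Ranger to mm10, removed cells at or under 1000 genes or holding 15% or more mitochondrial or 40% or more ribosomal UMIs, and named clusters in Seurat 4.3.0 after integration with other experiments. They deposited raw UMI counts for 33368 cells and 32285 genes with a sample and cell type per cell, and these counts are whole and not normalized. Counts were summed per sample and type and scaled to CPM. Genes needed 10 CPM in the mean of the 4 samples (for single types, of the 2 compared), ratios used a pseudocount of 1 CPM and levels needed 20 cells. With 1 sample per group no test was run, and depth enters as Poisson, Clopper-Pearson or delta-method 95% intervals, which cover counting error only. The ratio script was tested on simulated counts. Doublets between samples are removed by the sample oligos, and no caller was run for others, so the deepest 5% of cells were left out in an alternative. Members, lists and tests were chosen with earlier results of these data known. Beside the members, the text names the 3 highest and 3 lowest list genes per class for NTT against RTT and for the knockout pair, and the 3 genes most like each member, of which 1 is not reported here. TAM_H2Ab1 was taken out of the macrophages after its leading genes were seen. Il36a, Il36b, Il36g and Il36rn were matched by older symbols. Python 3.11.15, numpy 2.4.6, scipy 1.17.1, R 4.3.3 and edgeR 4.0.16 (TMM factors only) were used. Promoter windows were from RefSeq, GRCm38.p6, the build of mm10, and all 9 members had 1 or more.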

Additional observations from a re-analysis of the deposited data

Results flagged for a closer look

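For NTT against RTT, 3 members lay on opposite sides of 0 in monocytes and macrophages, with both counting intervals clear of 0. Il1a had a log2 ratio of 1.04 in monocytes and -1.30 in macrophages, Il1rn 0.46 and -0.31, and Nlrp3 0.31 and -0.48. The differences between the classes were not tested, since each group is 1 sample, and the macrophage values rest on 116 NTT cells. The split did not hold in each type. In Infl_Mono the ratios were -0.08 for Il1a, -0.12 (-0.22 to -0.02) for Il1rn and -0.27 (-0.49 to -0.05) for Nlrp3, and Il1rn was 0.12 in TAM_Spp1 and 0.04 in TAM_cycling, which made up 79 of the 116 NTT macrophages. Nlrp3 in monocytes was -0.03 in load 1 alone.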

How the results depend on the processing

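No paired analysis was possible because there was a single sample per group. Of the member log2 ratios under alternatives, 446 moved by less than their counting error and 322 by more, 118 of the latter in single loads. No count turned direction. Over all cells, the count of members past 2-fold was 1 for the knockout pair (Casp4 left) and 0 for the control pair with a pseudocount of 10 CPM, 4 for NTT against RTT without the deepest 5% of cells (Il1b and Il1rap joined), and 0, 0 and 0 for the 3 comparisons with 1 mix of cell types. For NTT against RTT over all cells, Il1b was also past 2-fold with TMM factors (1.08), and Il1rap after thinning (-1.08), with a mean over cells (-1.12) and in load 2 alone (-1.12). In monocytes the count was 1 for NTT against RTT with that pseudocount, 1 for the knockout pair after thinning (Il1rap), and 2 for the control pair without Infl_Mono (Il1a joined, at 1.14). In load 1 alone, Il1rap in monocytes was past 2-fold for the knockout pair (-1.28) and the control pair (1.02). Il1a was at -1.56 there for the control pair, opposite in sign to the value without Infl_Mono. Load 1 alone also put Nlrp3 past 2-fold in macrophages for NTT against RTT (-1.05). In macrophages, NTT against RTT gave 0 with that pseudocount and 1 with TMM factors or with a mean over cells (Casp1 left). Thinning kept the count at 2 but took Il1a out (-0.86) and brought Il1rap in (-1.20), and load 2 alone took out Il1a (-0.45) and Casp1 (0.86) and brought in Il1r2 (-1.11) and Il1rap (-1.81). With 1 mix, Il1a and Il1r2 over all cells turned to -0.31 and -0.61 for NTT against RTT. The NTT side of that mix rests on few macrophages, among them 12 TAM_C1q and 20 TAM_Spp1 cells. The class value of Il1b in macrophages for that pair changed sign, from 0.10 to -0.04 after thinning and -0.02 with TAM_H2Ab1 counted in, an alternative chosen after seeing the data. Thinning gave shares of cells with Il1b of 92.0%, 86.7% and 80.3% in monocytes of NTT, RTT and RTT_PTGS12KO, and 75.9%, 58.8%, 52.6% and 58.2% in macrophages of the 4 samples. Without the deepest 5% of cells the log2 ratio of Il1b to Il1rn UMIs was 2.30 in RTT and 2.07 in RTT_ROSA26 over all cells, 2.44 in RTT_PTGS12KO monocytes, and 2.10, 1.74 and 1.50 in macrophages of RTT, RTT_ROSA26 and RTT_PTGS12KO. Causes were not tested. Low counts limit Il1r1 and Il1rap, and cell numbers (116 and 144) limit values of NTT macrophages and RTT_ROSA26 monocytes.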
